A study of Rattus norvegicus with 15 samples.

Results

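The 7 keratin genes Krt5, Krt7, Krt8, Krt15, Krt18, Krt19 and Krt76 were followed in rat lung after acute injury, as the lines of an expression table of 22250 genes that carry these symbols. The table holds 47 keratin genes in all, so 40 keratins lie outside the group. RNA was sequenced from the lungs of wild-type rats in 15 libraries, 5 per group. Normal rats served as control. Rats labelled ALI (acute lung injury) had received lipopolysaccharide (LPS, a component of the outer membrane of bacteria) into the trachea. Rats labelled SJY had received LPS by that route and also Sang Ju Yin (a formula of Chinese herbal medicine) into the stomach. The labels give no strain, age, dose or time after LPS. They name no group given instillation or the formula's vehicle alone, so effects of LPS and of its instillation cannot be told apart. The same holds for the formula and its vehicle. Levels are FPKM, fragments corrected for gene length and library size, which allows levels of different genes to be compared. Differences between groups are in mean log2(FPKM + 1), which understates the change of low genes, and come from a limma fit across 13457 genes with calls at an adjusted p below 0.05 (Benjamini-Hochberg over all of them).

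Keratins are the intermediate filament proteins of epithelial cells. Each filament is built from pairs of an acidic type I keratin (here Krt15, Krt18 and Krt19) and a basic type II keratin (Krt5, Krt7, Krt8 and Krt76). Krt7, Krt8, Krt18 and Krt19 belong to simple epithelia, among them the alveolar and airway lining. Krt5 and Krt15 mark basal cells, the progenitors of the airway epithelium, and Krt76 is best known from the epithelium of the mouth and palate. In mouse models of lung injury, high Krt8 marks a transitional state between alveolar type II and type I cells, and Krt5-positive cells can spread into injured alveoli.

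The tissue was lung by its defining transcripts. In control, the type II cell surfactant gene Sftpc averaged 12607 FPKM, the type I cell gene Ager averaged 1278 FPKM and the club cell gene Scgb1a1 averaged 13336 FPKM. ALI 1 stood apart from the other libraries, with 37.7% of its summed FPKM in mitochondrial genes. This share also moved with the groups: it was 5.19% to 9.62% in control, 8.31% to 14.1% in the other 4 ALI libraries and 10.4% to 17.1% in SJY, so every SJY library was above every control, and its part in the keratin levels was not tested. ALI 1 also held the lowest level of Krt7, Krt8, Krt19, Krt76 and Krt15 of any library, so the keratin differences against ALI are also given without it. Sequencing depth relative to the mean library, read from the steps between low FPKM values, was 0.932 to 1.08.

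The 4 keratins of simple epithelia made up most of the keratin transcripts. In control they summed to 515 ± 33.0 FPKM (SD, n = 5), which was 85.3 ± 2.15% of all keratin FPKM. Krt7 had the highest level, at 206 ± 18.2 FPKM, followed by Krt19 at 134 ± 12.3, Krt8 at 116 ± 9.87 and Krt18 at 59.9 ± 8.80 FPKM. The ranges of Krt7 and Krt19 did not overlap, nor did those of Krt8 and Krt18, whereas Krt19 and Krt8 overlapped and Krt19 was the higher in 4 of 5 control libraries. Krt76 averaged 16.6 ± 5.17 FPKM, below the type II keratins Krt79 and Krt80 outside the group. Krt15 averaged 4.63 ± 2.62 FPKM, and Krt5 was near 0.

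**Figure D1:**
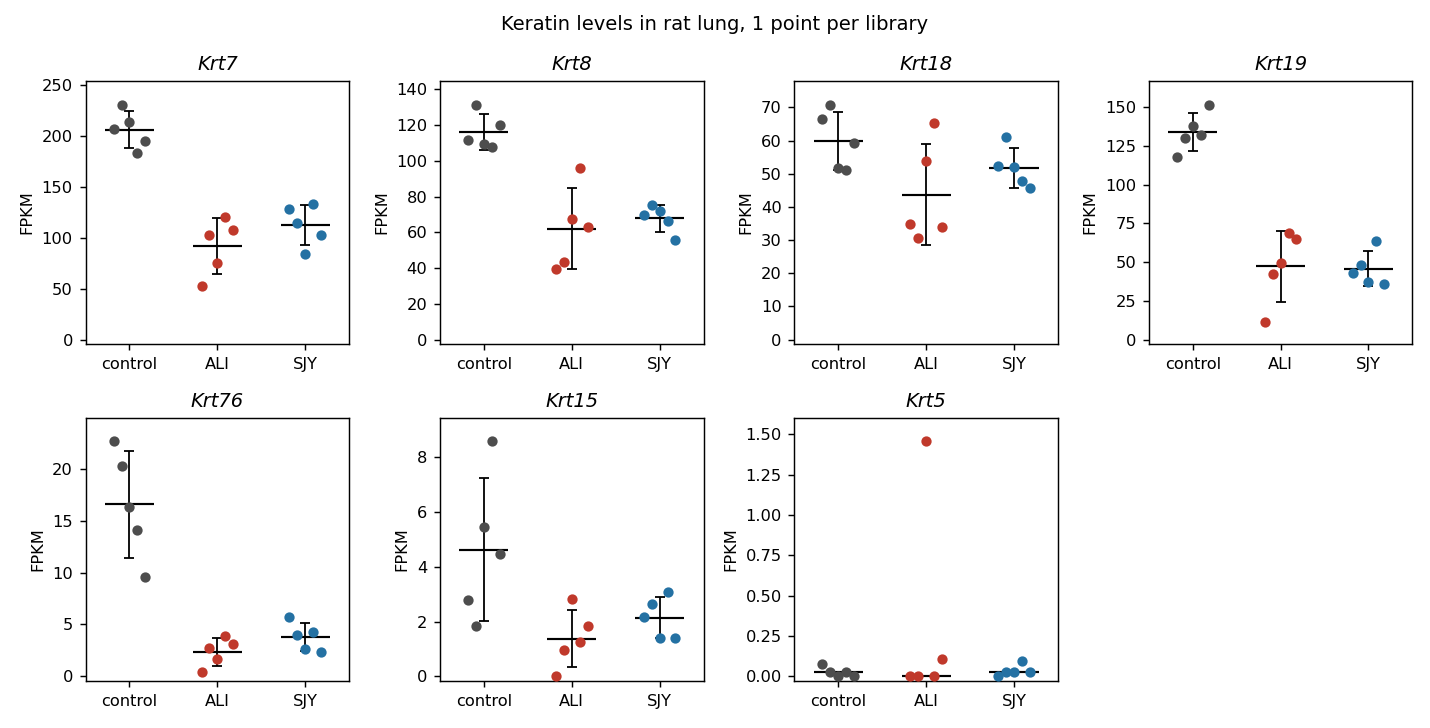
FPKM of each keratin in every library (points), with the group mean (line) and SD (bars), by group on the horizontal axis; the Krt5 panel shows the median and no SD. Krt7, Krt8, Krt19 and Krt76 were higher in all 5 control libraries than in any ALI or SJY library, and Krt5 stood above 0.11 FPKM in ALI 3 alone.

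The difference after LPS given into the trachea was read from ALI and control. Of the 7 keratins, 6 passed the filter of at least 1 FPKM in at least 5 libraries, and 5 of these 6 fell: Krt7, Krt8, Krt15, Krt19 and Krt76. Of all 13457 genes tested, 9.56% were called lower in this comparison. The 7 keratins and the gene lists below were chosen with earlier results of these data known. Counts of their members therefore describe them and do not test them. None of the 6 rose, including Krt8 and Krt18, while 8.02% of all tested genes did. Krt7, Krt8, Krt19 and Krt76 did not overlap between the groups, where 6.73% of all tested genes were lower without overlap. The median difference of the 6 was -1.23 on the log2 scale, against -0.12 over all tested genes. Median-of-ratios scaling brought the median of all genes to 0.0001, and under it the same 5 keratins were called, from -0.82 for Krt8 to -2.36 for Krt76.

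In bulk tissue, fewer cells of a type and less RNA per cell cannot be told apart. Leukocyte transcripts rose beside the fall of the keratins: 10 of 15 leukocyte genes were called higher, beside 8.02% of all tested genes, and their summed level was 992 to 1278 FPKM in control, 3055 to 17785 in ALI and 8810 to 14333 in SJY. No gene of the list was at 0 in all libraries. Ptprc, a gene of this list, was not called (71.6 ± 17.3 FPKM in control and 79.7 ± 27.7 in ALI, limma adjusted p = 0.774). Whether the leukocyte content differed, and its part in the keratin levels, was not tested.

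Krt7, a type II keratin of ducts and alveoli, stood at 206, 230.5, 214, 183 and 195 FPKM in control 4 to 8. It stood at 52.4, 102, 74.8, 119.9 and 108 FPKM in ALI 1 to 5, and at 128, 114, 84.1, 133 and 102 FPKM in SJY 1, 3, 4, 5 and 6. Every control library was above every other library, and the ALI and SJY ranges overlapped. The mean fell by 55.5% in ALI, a log2 difference of -1.21 ± 0.19 (SE; limma adjusted p = 0.000702), and the difference was -1.03 without ALI 1.

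Krt8 is the type II partner of Krt18 and the keratin named for the transitional alveolar state. Its level was 112, 132, 109.5, 108 and 120.2 FPKM in control 4 to 8. In ALI 1 to 5 it was 39.5, 43.5, 67.7, 96.2 and 62.9 FPKM, and in SJY 69.8, 75.2, 71.8, 66.6 and 55.5 FPKM. ALI 4 came nearest to the control range, and no library with LPS reached it. The mean fell by 46.6% in ALI, with a log2 difference of -0.96 ± 0.19 (limma adjusted p = 0.00304), or -0.82 without ALI 1.

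Krt18, the type I partner of Krt8, moved less. It stood at 66.5, 70.9, 51.7, 51.1 and 59.3 FPKM in control, at 34.9, 30.6, 53.9, 65.4 and 33.9 FPKM in ALI, and at 52.4, 61.1, 52.1, 47.8 and 45.6 FPKM in SJY. ALI 3 and ALI 4 lay within the control range, and ALI 1, 2 and 5 below it. The log2 difference in ALI was -0.50 ± 0.18 and was not called (limma adjusted p = 0.0726). It was -0.43 without ALI 1, while without ALI 4 it was -0.65 and passed (adjusted p = 0.0132).

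Krt8 and Krt18 lie side by side on rat chromosome 7 in the RefSeq annotation, at the end of the type II keratin cluster. Their transcripts followed each other across the 15 libraries, with Pearson r = 0.82 on the log2 scale, and r = 0.84 after each group's mean was removed. The 2 genes nevertheless differed in the size of their difference from control, which is why the 250 bases before their starts are shown, with those of Krt76, the keratin with the largest difference. The sequences are from RefSeq (build GRCr8, chr7:135010340-135010589 on the minus strand for Krt8, chr7:135035918-135036167 on the plus strand for Krt18 and chr7:134904163-134904412 on the minus strand for Krt76). Of the 7 keratins, 4 had an entry (Krt5, Krt8, Krt18 and Krt76). Each is written 5′ to 3′ and ends at the base before the annotated start. Capitals mark matches on either strand to 3 motifs. These are TATAAA, the letters of the TATA box, then GGGCGG, the letters of the GC box, and CTCAAG, the core bound by the lung factor NKX2-1.
Krt8: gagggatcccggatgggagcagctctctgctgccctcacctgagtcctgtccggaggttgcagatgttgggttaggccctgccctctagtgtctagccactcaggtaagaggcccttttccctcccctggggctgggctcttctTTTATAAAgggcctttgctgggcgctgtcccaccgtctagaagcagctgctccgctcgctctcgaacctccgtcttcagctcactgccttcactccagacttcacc
Krt18: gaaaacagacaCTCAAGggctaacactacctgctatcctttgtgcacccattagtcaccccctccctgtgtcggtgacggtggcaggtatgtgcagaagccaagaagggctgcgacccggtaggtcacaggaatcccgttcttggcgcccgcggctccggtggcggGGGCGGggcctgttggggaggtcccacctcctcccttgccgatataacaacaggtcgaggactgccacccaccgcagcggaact
Krt76: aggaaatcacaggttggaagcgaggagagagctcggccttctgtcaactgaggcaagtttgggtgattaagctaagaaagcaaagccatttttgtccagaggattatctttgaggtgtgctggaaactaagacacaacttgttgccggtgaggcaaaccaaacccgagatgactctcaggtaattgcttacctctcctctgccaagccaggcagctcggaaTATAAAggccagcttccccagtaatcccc
TATAAA occurs in 12.9% of 33469 rat promoters of this length, GGGCGG in 30.5% and CTCAAG in 13.3%. In Krt76 the TATAAA lay 29 to 24 bases before the start. In Krt8 a forward match at 104 to 99 overlapped a reverse match at 106 to 101, and both are within the capitals. Krt18 held no TATAAA in this window, a GGGCGG at 84 to 79 and a CTCAAG at 239 to 234. TGANTCA, the letters of the AP-1 site, occurs in 6.34% of promoters and in none of the 4. A match describes letters only.

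Krt19, a short type I keratin of simple and glandular epithelia, changed more than Krt18. It stood at 118, 130.1, 138, 132 and 152 FPKM in control, at 11.3, 42.2, 49.5, 68.8 and 64.7 FPKM in ALI, and at 43.2, 48.0, 37.2, 63.8 and 35.9 FPKM in SJY. No library with LPS reached the lowest control value, and ALI 1 was far below the others. The mean fell by 64.7%, with a log2 difference of -1.69 ± 0.35 (limma adjusted p = 0.00451). Without ALI 1 it was -1.26 (adjusted p = 0.000119).

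Krt76, a type II keratin of oral epithelium, had the largest difference of the 7. Its levels were 22.7, 20.3, 16.4, 14.1 and 9.54 FPKM in control, 0.427, 2.77, 1.67, 3.85 and 3.07 FPKM in ALI, and 5.68, 3.94, 2.60, 4.26 and 2.36 FPKM in SJY. All control libraries were above all others, although the controls themselves spread widely. The mean fell by 85.8%, with a log2 difference of -2.45 ± 0.31 (limma adjusted p = 0.000107). In reads, recovered from the steps of the FPKM values, this was 264 to 656 per library in control and 13 to 122 in ALI. Without ALI 1 the log2 difference was -2.17.

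Krt15, a type I keratin of basal cells whose gene lies beside Krt19 on chromosome 10, was low and variable. It stood at 2.78, 1.85, 5.45, 8.59 and 4.49 FPKM in control, at 0, 0.965, 2.83, 1.25 and 1.84 FPKM in ALI, and at 2.18, 2.64, 1.40, 3.06 and 1.39 FPKM in SJY. ALI 3 lay inside the control range and the other 4 ALI libraries below it. The log2 difference in ALI was -1.25 ± 0.35 (limma adjusted p = 0.0236). This call was lost without control 6, 7 or 8 in turn (adjusted p = 0.0589, 0.067 and 0.0511), with a pseudocount of 0.1 (0.0528) and in a fit of these 2 groups alone (0.0633). Without ALI 1 the difference was -0.97 (limma adjusted p = 0.0406).

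Krt5, the type II keratin that defines basal cells, failed the filter. It gave 3, 1, 0, 1 and 0 reads in control, 0, 0, 61, 0 and 4 reads in ALI, and 0, 1, 1, 4 and 1 reads in SJY. A count of 0 allows up to 3 reads, which is at most 0.0785 FPKM for this gene. The 61 reads of ALI 3 were 1.46 FPKM, and no other library went above 0.104 FPKM, so no group difference was called (0.25 ± 0.19 in a fit without the filter, limma adjusted p = 0.401). Of other basal cell genes, 3 chosen after their values were seen also had their highest level in ALI 3. Krt14, the usual partner of Krt5, had 71 reads there, 58 in ALI 4 and at most 17 elsewhere. Krt17 had 78 reads in ALI 3 and at most 9 elsewhere, and Tp63, the transcription factor of basal cells, had 15 against at most 8. Ngfr, another basal cell gene that failed the filter, averaged 0.98 ± 0.55 FPKM in control and 0.947 ± 0.876 in ALI. The remaining genes of this list of 12 that failed the filter are not described here. The 4 basal cell genes that passed the filter did not stand out in ALI 3, with a mean of 4.12 on the log2(FPKM + 1) scale against 3.09 to 4.56 in the other libraries. The airway club and goblet list averaged 6.26 in ALI 3 on that scale, against 3.04 to 4.55 in all other libraries. The part of airway content in the Krt5 reads of this library was not tested.

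**Figure D2:**
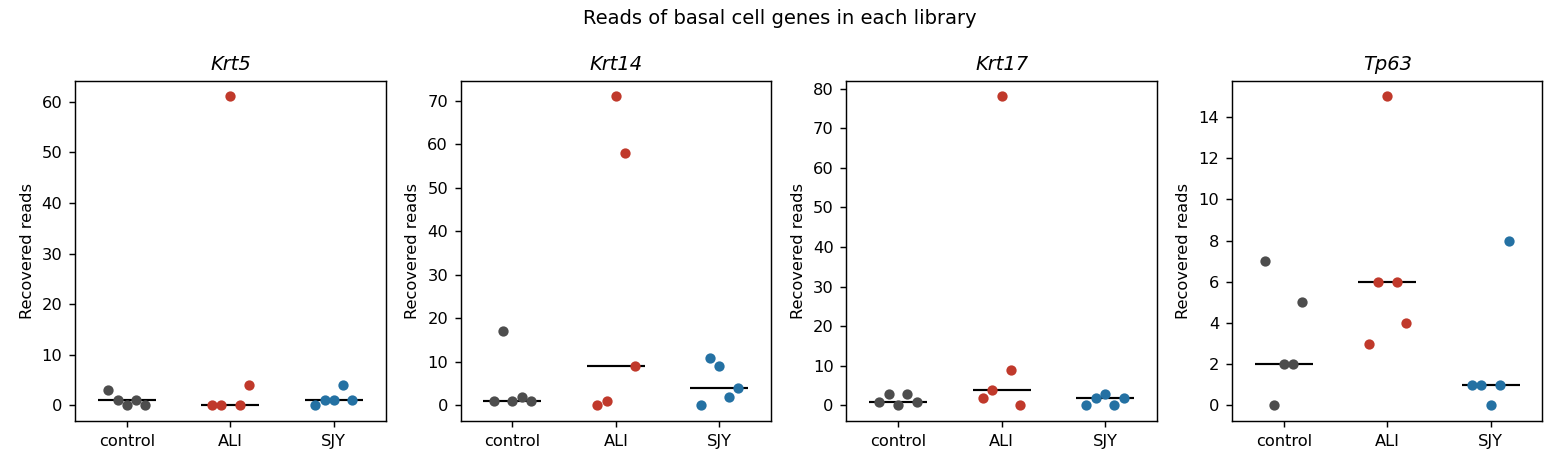
Recovered reads of the basal cell genes Krt5, Krt14, Krt17 and Tp63 in each library (points) with the group median (line), by group. ALI 3 held the highest count of each gene, 61, 71, 78 and 15 reads.

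The difference with the formula in lungs given LPS was read from SJY and ALI. Of the 6 keratins tested, 0 were called in either direction, and limma called 1 of 13457 genes (0.00743%), with 11.8% of genes at an unadjusted p under 0.05. None of the 6 keratins had an unadjusted p under 0.05. The estimates, all above 0, were 0.33 for Krt7 (95% interval -0.08 to 0.74), 0.19 for Krt8 (-0.21 to 0.59), 0.29 for Krt18 (-0.10 to 0.69), 0.14 for Krt19 (-0.61 to 0.88), 0.50 for Krt15 (-0.25 to 1.24) and 0.58 for Krt76 (-0.08 to 1.24), with limma adjusted p from 0.491 to 0.917. These intervals leave room for no difference, for falls and for rises, within the bounds given. For Krt7, 2 of 5 SJY libraries were above every ALI library, and for Krt76 3 of 5 were. ALI 1 weighed on these values: without it the difference was 0.15 for Krt7, 0.05 for Krt8, 0.23 for Krt18, 0.30 for Krt76 and 0.22 for Krt15, and that of Krt19 turned to -0.30 (adjusted p = 0.333).

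Against control, the SJY lungs held lower Krt7, Krt8, Krt19 and Krt76, which is 4 of the 6 keratins tested, where 18.1% of all tested genes were called lower. These 4 did not overlap with control, where 15.9% of all tested genes were lower without overlap. This comparison shares the control libraries with that of ALI, so the values stand side by side without a test of likeness. The log2 difference was -0.88 ± 0.19 for Krt7 (limma adjusted p = 0.00336) and -0.77 ± 0.19 for Krt8 (adjusted p = 0.00653). It was -1.56 ± 0.35 for Krt19 (adjusted p = 0.00403) and -1.88 ± 0.31 for Krt76 (adjusted p = 0.000558). Krt18 was at -0.20 ± 0.18 (adjusted p = 0.426) and Krt15 at -0.75 ± 0.35 (adjusted p = 0.111), neither called. All 5 SJY libraries had Krt19 at 63.8 FPKM or below, while the lowest control was 118 FPKM.

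**Figure D3:**
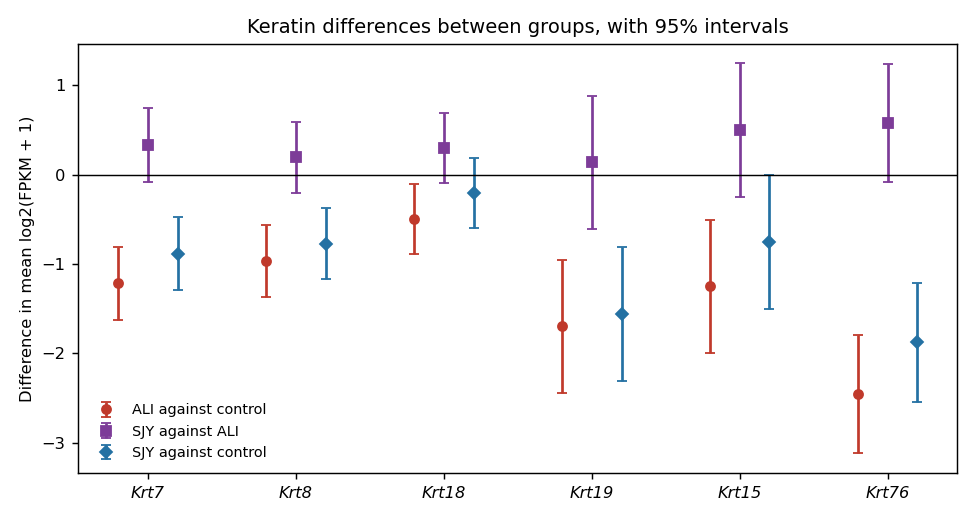
Difference in mean log2(FPKM + 1) for 6 keratins (points) with 95% limma intervals (bars), for the 3 pairs of groups named in the key. The intervals of Krt7, Krt8, Krt19 and Krt76 lie below 0 in both comparisons with control, and all 6 intervals of SJY against ALI include 0.

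The make-up of the keratin pool shifted as the levels fell. The 4 simple keratins summed to 244 ± 77.1 FPKM in ALI and 277 ± 32.8 FPKM in SJY, against 515 ± 33.0 in control (SD, n = 5 each). Krt18 held 11.6 ± 1.30% of this sum in control, 18.5 ± 5.30% in ALI and 18.8 ± 2.32% in SJY, while Krt19 held 26.0 ± 2.60%, 18.3 ± 5.93% and 16.3 ± 2.41%. Krt7 kept the highest mean in each group, at 39.9 ± 1.96%, 37.9 ± 6.20% and 40.3 ± 3.95%. Below it the order of means was Krt19, Krt8, Krt18 in control, Krt8, Krt19, Krt18 in ALI and Krt8, Krt18, Krt19 in SJY. In ALI and SJY each neighbour below Krt7 in this order overlapped with the next. The type II members Krt7 and Krt8 together stood at 1.66 ± 0.121 times the type I members Krt18 and Krt19 in control, 1.74 ± 0.265 times in ALI and 1.85 ± 0.143 times in SJY.

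Unequal movement was examined in 8 ratios of genes within each library, in 3 comparisons, by two-sided exact permutation tests over all splits of 5 against 5 libraries, adjusted over the 24 tests. The smallest p such a test can give is 0.00794. The log2 ratio of Krt8 to Krt18 was 0.95 ± 0.14 in control, 0.48 ± 0.26 in ALI and 0.38 ± 0.09 in SJY. It was lower than control in ALI (exact p = 0.0159, adjusted 0.0476) and, without overlap, in SJY (exact p = 0.00794, adjusted 0.0317). The log2 ratio of Krt19 to Krt18 was 1.15 ± 0.29 in control, -0.05 ± 0.92 in ALI and -0.20 ± 0.35 in SJY, and it was lower than control in SJY (exact p = 0.00794, adjusted 0.0317). In ALI this ratio missed the threshold (exact p = 0.0238, adjusted 0.0635). Krt7 to Krt8 gave no call in any comparison (adjusted p from 0.381 to 0.626). Without ALI 1, the fall of Krt8 to Krt18 in ALI was -0.39 rather than -0.47 and lost its call (adjusted p = 0.0847), as it did without ALI 2 (0.0571) or ALI 3 (0.0847). Krt19 to Krt18 in ALI passed without ALI 5 (-1.44, adjusted exact p = 0.0238).

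Set against Epcam, an adhesion protein of epithelial cells that itself fell in ALI by -0.77 ± 0.13 on the log2 scale (limma adjusted p = 0.00142), the simple keratins divided. The log2 ratio of Krt19 to Epcam was 0.28 ± 0.09 in control, -0.64 ± 0.74 in ALI and -0.55 ± 0.37 in SJY, lower without overlap in both (exact p = 0.00794, adjusted 0.0317 each). Without ALI 1 the differences in ALI were -0.61 for Krt19 and -0.39 for Krt7 to Epcam (adjusted exact p = 0.0381 each). Krt7 to Epcam was lower in ALI, with a difference of -0.44 (exact p = 0.00794, adjusted 0.0317), a call lost without ALI 3 (-0.34, adjusted 0.0714), and was not called in SJY. Krt8 to Epcam gave no call (adjusted p from 0.448 to 0.753), although in ALI it passed without ALI 4 (-0.31, adjusted exact p = 0.0317) and with Cdh1, another epithelial adhesion protein, in place of Epcam (-0.56, adjusted exact p = 0.0476). Krt18 to Epcam was higher in SJY than in control by 0.53 (exact p = 0.0159, adjusted 0.0476), a call lost with Cdh1 in place of Epcam (adjusted p = 0.127) and without SJY 3, 4, 5 or 6 in turn (0.0635 to 0.106). The ratio of Krt5 to Krt15 was higher in ALI by 1.504 (exact p = 0.00794, adjusted 0.0317), but with Krt5 near 0 FPKM it mirrors the level of Krt15 through the pseudocount. No ratio was called between SJY and ALI. Leaving out any 1 control library left 0 of the 8 calls, leaving out ALI 1 or ALI 2 gave 5 calls and leaving out ALI 3 gave 4. With a library left out, its group is smaller than the group it is compared with. Each of the 8 ratios kept its direction without any 1 control library. Krt19 to Epcam in SJY, for example, stayed between -0.85 and -0.81. The cause of the lost calls was not tested.

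**Figure D4:**
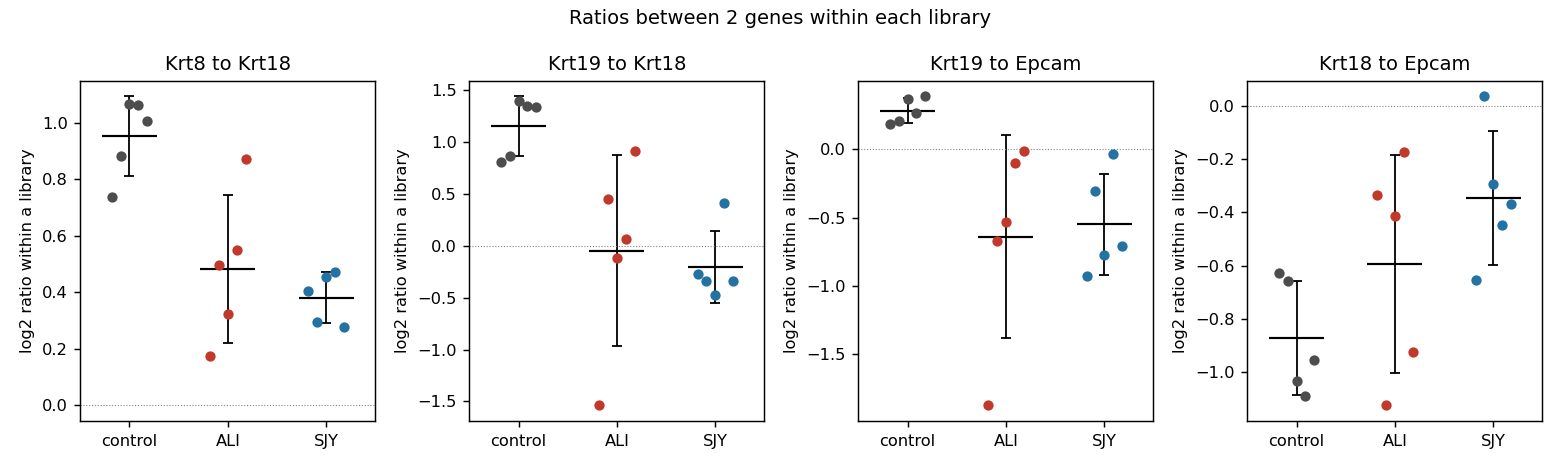
Difference of log2(FPKM + 1) between 2 genes within each library (points), with group mean (line) and SD (bars), for Krt8 to Krt18, Krt19 to Krt18, Krt19 to Epcam and Krt18 to Epcam. The 5 SJY libraries sit between 0.28 and 0.47 for Krt8 to Krt18, below the control range of 0.74 to 1.07.

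Outside the 7, the keratins that passed the filter were Krt1, Krt2, Krt10, Krt23, Krt75, Krt79 and Krt80. In ALI 0 of these 7 were called by limma, beside 9.56% of all tested genes called lower and 8.02% called higher. Of these 7 keratins 1, Krt10, had an unadjusted p under 0.05. The most abundant were Krt79 (27.2 ± 6.60 FPKM in control and 19.5 ± 9.82 in ALI, adjusted p = 0.21) and Krt80 (21.6 ± 2.20 and 19.7 ± 6.93, adjusted p = 0.525). Krt75, a type II keratin of hair follicles and nails, rose in SJY against control by 1.18 ± 0.23 (limma adjusted p = 0.00168), where 14.6% of all tested genes were called higher. Its levels were 0.727 to 2.40 FPKM in control, 1.12 to 2.54 in ALI and 2.60 to 6.62 in SJY, so every SJY library was above every other library. Its difference from ALI, 0.82, was not called (adjusted p = 0.223).

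Krt76 lies between Krt77 and Krt4 in the type II cluster, and these 2 neighbours were also lower after LPS, which was noticed after their values were seen. Both are under 2 FPKM in every library, so they failed the filter and are read from the fit without it, where 6.61% of 18545 genes were called lower in ALI and 13.6% in SJY. Krt77, a keratin of sweat gland ducts, gave 28 to 60 reads per library in control and 1 to 6 in ALI, a log2 difference of -0.92 ± 0.09 (limma adjusted p = 3.76e-05). Krt4, a keratin of mucosal epithelium, gave 15 to 31 reads in control and 1 to 9 in ALI, a log2 difference of -0.76 ± 0.12 (adjusted p = 0.00147). In SJY they were at -0.76 and -0.58 against control, both called. Farther along on 1 side, Krt79 was not called, Krt78 was called lower in SJY (-0.22, adjusted p = 0.0286) and not in ALI (adjusted p = 0.0549), and Krt8 follows. On the other side Krt1 and Krt2 were not called. The 3 adjacent genes are similar in sequence, and how reads shared between them were assigned is not given in the sources used here.

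**Figure D5:**
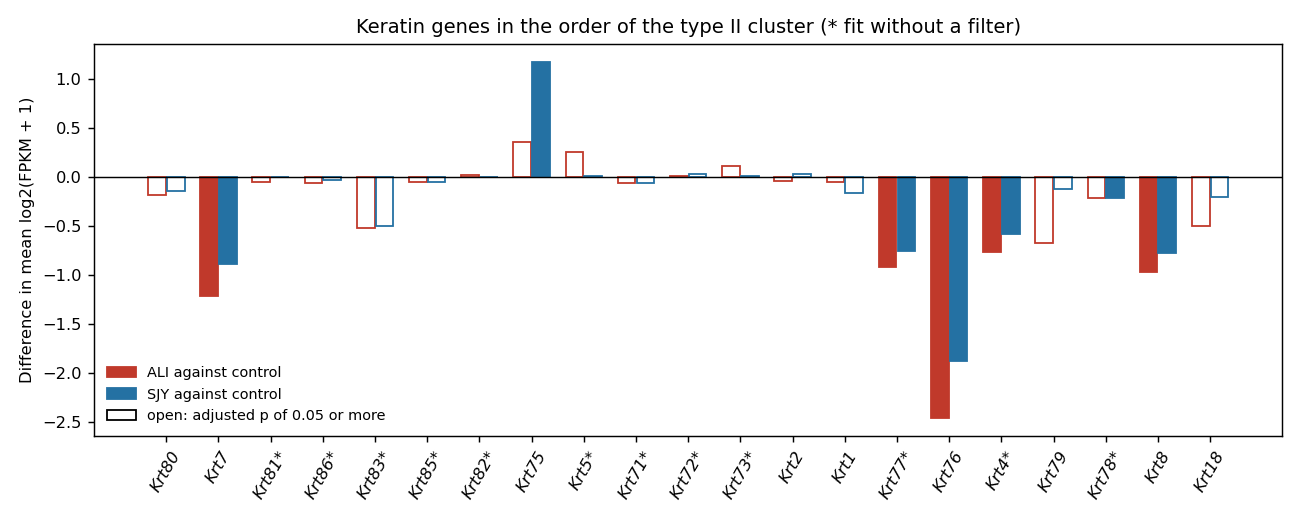
Difference in mean log2(FPKM + 1) from control for ALI (red) and SJY (blue) for the measured keratin genes in the order of the type II cluster in RefSeq, ending with the type I gene Krt18; filled bars were called. Krt77, Krt76 and Krt4 are neighbours with filled bars in both comparisons, at -0.92, -2.45 and -0.76 in ALI.

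Genes that work with keratins moved in part. Of 17 tested genes of desmosomes and hemidesmosomes, the junctions on which keratin filaments end, 6 fell in ALI and 0 rose (median log2 difference -0.43, against -0.12 over all genes), beside 9.56% of all tested genes called lower and 8.02% called higher. Perp, a desmosome membrane protein, fell from 63.5 ± 5.99 to 24.2 ± 10.1 FPKM, the plakin Ppl (periplakin) from 54.5 ± 9.13 to 21.7 ± 8.32 and the plakin Evpl (envoplakin) from 15.8 ± 2.88 to 6.33 ± 2.44 (limma adjusted p from 0.00151 to 0.00192). Among 9 other intermediate filament genes, 2 rose and 1 fell (median 0.00). Vim (vimentin), the filament of mesenchymal cells and leukocytes, rose from 704 ± 54.2 to 994 ± 92.6 FPKM (adjusted p = 0.00422) and the nuclear lamin Lmnb1 rose from 6.55 ± 1.55 to 12.4 ± 3.09 (adjusted p = 0.0106). Synm (synemin) fell from 40.1 ± 9.87 to 18.8 ± 9.33 FPKM (adjusted p = 0.0186), a call lost without control 5 (adjusted p = 0.0537).

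The transitional alveolar list, genes reported beside Krt8 in that state, did not move in a single direction. Of 24 tested, 7 rose and 5 fell in ALI, with a median of 0.03, where 8.02% of all tested genes rose and 9.56% fell. Risers were Clu (clusterin, 1.21), Tnip3 (an inhibitor of NF-kB signalling, 1.15) and Tm4sf1 (0.98). Ccn2, a matricellular protein, fell by 2.13, the growth factor Areg by 1.49 and the type I cell gene Hopx by 1.05 on the log2 scale. Cldn4, a tight junction protein (5.55 ± 1.04 FPKM in control and 4.39 ± 3.34 in ALI), and the cell cycle inhibitor Cdkn1a (36.0 ± 6.73 and 46.1 ± 19.4) were not called.

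Lists of epithelial cell types differed in how many of their genes fell in ALI, where 9.56% of all tested genes were called lower. Of 21 pan-epithelial genes 13 fell and 0 rose (median -0.67), with 8 lower without control 5 and 10 without ALI 1. Among them was the protease Prss8 at -0.93. All 18 alveolar type I genes fell (median -1.52), and 17 without ALI 1. With each control or ALI library left out in turn, 12 to 18 were called lower. Spock2, Akap5 and Timp3 were at -2.20, -1.97 and -1.95, and the summed level of the list was 5029 to 7180 FPKM in control, 971.5 to 3785 in ALI and 2601 to 3662 in SJY. Of 16 type II genes 4 were called lower (median -0.45), a count that was 0 without control 5, 7 or 8 in turn, 1 without ALI 3, 2 without ALI 2 and 7 without ALI 5. Slc34a2, Etv5 and Sftpb, at -1.12, -1.10 and -0.87, each lost their call without control 5, 7 or 8 or ALI 3 (limma adjusted p from 0.0517 to 0.0813). In a fit of ALI and control alone, 7 pan-epithelial, 11 type I and 0 type II genes were called lower.

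The counts of airway genes stand beside 9.56% of all tested genes called lower. For airway cells, 2 of 11 club and goblet genes fell (Cyp2f4 and Scgb1a1, at -2.78 and -0.97), or 4 without ALI 3. The mean of this list was 4.04 ± 1.34 on the log2 scale in ALI against 3.86 ± 0.28 in control. Of 10 ciliated genes 4 were called lower (median -0.77), a count of 1 without control 7, control 8 or ALI 2, of 2 without ALI 1 or ALI 4 and of 6 without ALI 5. Of 4 basal genes Lamb3 was called lower, at -1.08, and lost this call without control 5, 6, 7 or 8 in turn (limma adjusted p from 0.0511 to 0.0652).

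In the lists of other cell types, 2 endothelial, 3 mesothelial and 1 squamous gene were called, where 8.02% of all tested genes were called higher and 9.56% lower. Of 10 endothelial genes, Kdr was called lower at -0.96 and Emcn higher at 0.97, the latter lost without control 5, 6 or 7 or ALI 2 or 4 (limma adjusted p from 0.0507 to 0.0697). Of 9 genes listed as mesothelial, Hp rose by 2.92, while the median of the list was -0.30. Itln1 at 1.84 and Gpm6a at -1.25 were called, and lost their calls without control 8 (adjusted p = 0.0542) and control 7 (0.0605). Of 5 squamous genes Tgm1 was called at 1.53, and not without control 6 (adjusted p = 0.0559). No gene of these lists was called between SJY and ALI. In SJY against control, limma called lower 14 of 18 type I, 13 of 21 pan-epithelial and 8 of 16 type II genes, beside 18.1% of all tested genes.

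By the pattern over the 15 libraries, on the log2(FPKM + 1) scale, the genes most like each keratin were named by the highest Pearson r. All these values share the group differences and the outlying library, and describe these libraries. Krt7 was closest to Tmod1 (r = 0.974), Krt76 (0.97) and Syt12 (0.966), and Krt76 to Krt7 (0.97), Ackr4 (0.962) and Pxdc1 (0.952). After the group means were removed, Krt7 and Krt76 kept r = 0.87. Krt19 was closest to Flvcr2 (0.981), Scnn1a (0.976), a subunit of the epithelial sodium channel, and Slc44a3 (0.976). Krt8 was closest to Prkcz (0.927), Susd2 (0.915) and Dsp (0.914), the last being desmoplakin, which ties keratin filaments to desmosomes. Krt18 was closest to Krt8 (0.822), Tmpo (0.762) and Lipg (0.76), and Krt15 to Clk1 (0.884), Acsl1 (0.86) and Fam221a (0.856), lower values than for the other 4.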

How the data were processed

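Lung RNA of 15 rats' libraries (5 control, 5 ALI, 5 SJY, grouped by their labels) was analysed. Per the labels' protocols, total RNA was taken with TRIzol and the NEBNext Ultra kit was used for libraries. Tools named in the submitters' processing notes are cutadapt, HISAT2 and StringTie, without versions, on build Rnor_6.0, and strand use is not given in the sources used here. The deposited values are FPKM per gene, as the file headers say, 1 column for each library, made by the authors. Total depth is not given. Low values were whole multiples of 1 read for 3329 of 3329 genes examined (tolerance 0.02 reads), which gave the relative depth of libraries and reads per keratin, taking the smallest step that fits every library as 1 read. Limits for a count of 0 cover counting error only. Labels do not say whether a library is 1 animal, so p-values reflect the spread among libraries, which may be technical.

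FPKM was turned into log2(FPKM + 1), genes were kept if 5 or more of the 15 libraries reached 1 FPKM, and limma 3.58.1 (R 4.3.3, trend and robust) fitted 3 groups together, with two-sided tests adjusted by Benjamini-Hochberg over 13457 genes and called under 0.05. Ratios used exact permutation tests. The fit was tested on simulated data. All libraries entered the main tests. Alternatives were a pseudocount of 0.1, no filter, a mean of at least 5 FPKM, median-of-ratios scaling, limma without trend and robust settings, array weights, a block for the replicate number, 2 groups alone, each library left out, Cdh1 for Epcam and, chosen after seeing the data, ALI 1 and ALI 3 left out together. The keratins and the gene lists were chosen with earlier results of these data known. Named genes were the 7 keratins, tested keratins, the called genes of each list that moved furthest (at most 3 up and 3 down, or the 3 most abundant where none was called), the 3 genes most correlated with each keratin, and defining markers; 1 gene that this rule names is not reported here. Neighbours and promoters came from RefSeq (GRCr8), a different build, so coordinates refer to that build alone.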

Additional observations from a re-analysis of the deposited data

Results flagged for a closer look

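A library lay far from the other 4 of its group in 3 of 45 groups of values examined, and chance gives such a gap in about 1 in 20 groups. The first was Krt5 in ALI, where ALI 3 at 1.46 FPKM was separated from the nearest library by 0.928 of the group's range. The second was Krt5 in SJY, where SJY 5 at 0.0931 FPKM, or 4 reads, was separated by 0.719 of the range. The third was the log2 ratio of Krt19 to Krt18 in SJY, where SJY 5 stood at 0.41 and was separated by 0.773 of the range, above the other 4 SJY libraries.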

How the results depend on the processing

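Alternatives were compared with the reported values over the 7 keratins, the ratios, the lists and the counts of genes. Krt7, Krt8, Krt19 and Krt76 kept their call in ALI against control and in SJY against control under every alternative except the replicate block. With the replicate number as a block, ALI against control had 244 genes called higher, 69 lower and 1 keratin lower, Krt76. Krt7 was then at -1.25, Krt8 at -0.86, Krt19 at -1.42 and Krt15 at -0.82, none called, and Krt80, not called before, went from -0.18 to 0.0087. In SJY against control the block gave 743 higher, 399 lower and 1 keratin lower, again Krt76, with Krt7 at -0.86, Krt8 at -0.74 and Krt19 at -1.27 not called, and the block left 0 of the 8 ratios called. The numbers are not shown to pair libraries: same-numbered deviations correlated at -0.389 to 0.302. Between ALI and SJY, 2 of 4 ALI and 2 of 4 SJY libraries correlated best with their own number. Between control and SJY, 3 of 3 control and 2 of 3 SJY libraries did. Control and ALI share only numbers 4 and 5, and control and SJY only 4, 5 and 6. Control 7, control 8 and ALI 2 have no library of their number in another group. The block therefore cannot compare them within a number. Its part in the lost calls was not tested.

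Array weights gave 1843 higher and 2116 lower in ALI against control, 297 and 181 in SJY against ALI and 3344 and 4310 in SJY against control, with Krt15 at -1.07 and called in the last. Under them Krt19 in SJY against ALI turned to -0.24. A fit of ALI and control alone gave 609 genes lower, and Krt15, at -1.25, lost its call there, as at -2.12 with a pseudocount of 0.1. Without ALI 1 and ALI 3 together, chosen after seeing the data, 656 genes were lower in ALI, 84 were higher and 72 lower in SJY against ALI, Krt19 there was at -0.35, and 0 ratios were called. The 1 gene called higher in SJY against ALI became 0 with a pseudocount of 0.1, with no filter, with median-of-ratios scaling, without trend and robust settings and in the fit of the 2 groups. With Cdh1 for Epcam, Krt18 in ALI went from 0.28 to -0.095.

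Leaving out single libraries gave 717 to 1737 genes lower in ALI against control. It gave 0 to 119 higher and 0 to 62 lower in SJY against ALI, the highest without ALI 1, and 0 keratins called there each time. Krt18 in ALI ran from -0.65 to -0.39, Krt15 from -1.46 to -0.97, and Krt19 in SJY against ALI from -0.30 to 0.32. Ratios called ran from 0, without any 1 of the control libraries, to 10, without ALI 5. The cause of this range was not tested. Of ratios that were not called, Krt8 to Epcam in SJY against control ran from -0.118 to 0.026, turning without SJY 1, and Krt7 to Krt8 ran from -0.181 to 0.0083, turning without SJY 4. Most libraries hold fewer Krt5 reads than a count of 0 allows, so differences among them were not detectable.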
